A study of Rattus norvegicus with 9 samples.

Results

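Glucocorticoid-responsive genes, 10 in number, were followed in rat gastrocnemius muscle: Fkbp5, Tsc22d3, Klf9, Klf15, Zbtb16, Sgk1, Cebpd, Lpin1, Errfi1 and Glul. They were taken as a named list and were found by matching the NCBI gene ID in each file to a RefSeq symbol. All 10 were present among the 13752 gene IDs that occurred in any library. The question was whether Fkbp5 moved with the other genes of the list.

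Messenger RNA of the gastrocnemius, which the sciatic nerve innervates, had been sequenced in 9 libraries, in 3 groups of 3, from male rats aged 8 weeks. SHAM rats had a sham operation, and DN rats had a sciatic nerve injury without stimulation. DN-SM rats had the same injury followed by daily electrical stimulation of the left calf through surface electrodes for 4 weeks (25 V, 1 mA, 2 Hz, pulse width 300 ms), which made the heel lift. Rats of all 3 groups were anaesthetised with sodium pentobarbital, shaved and fitted with electrodes, which carried no current in SHAM and DN. The labels name no strain, and they do not state the kind of injury, the day and hour of collection, or whether each library is from its own animal. P-values therefore measure the spread between these libraries, which may in part be technical.

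Glucocorticoids (corticosterone in the rat) cross the cell membrane and bind the glucocorticoid receptor, encoded by Nr3c1, which is held in the cytoplasm by Hsp90 and co-chaperones. The bound receptor enters the nucleus, where it raises the transcription of target genes through palindromic sites built from the half-site TGTTCT, and some targets feed back on it. In skeletal muscle the hormone shifts metabolism from protein building toward amino acid release, and several of these genes are used as indicators of hormone exposure. None of them responds to glucocorticoids alone.

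Only Fkbp5 and Lpin1 passed edgeR's test (adjusted p under 0.05) in a comparison of all 9 libraries, so the 250 bases before their start sites are shown, as given for the assembly GRCr8 in a RefSeq table. Both lie on the minus strand, Fkbp5 at chr20:6543556-6543805 and Lpin1 at chr6:45108943-45109192, and both are printed 5′ to 3′ with the start site after the last base. Capitals mark the receptor half-site TGTTCT.
Fkbp5: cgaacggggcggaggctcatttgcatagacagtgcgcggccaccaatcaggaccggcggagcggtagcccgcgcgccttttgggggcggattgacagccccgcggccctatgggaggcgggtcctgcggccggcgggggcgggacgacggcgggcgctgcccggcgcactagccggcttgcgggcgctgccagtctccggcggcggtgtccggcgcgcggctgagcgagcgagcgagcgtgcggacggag
Lpin1: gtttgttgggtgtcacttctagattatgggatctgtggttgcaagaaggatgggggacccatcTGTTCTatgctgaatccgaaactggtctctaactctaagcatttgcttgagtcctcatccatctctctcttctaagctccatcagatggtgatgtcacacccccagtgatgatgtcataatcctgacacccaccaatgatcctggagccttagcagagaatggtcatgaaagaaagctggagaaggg

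The Fkbp5 window was 76% G and C, and the Lpin1 window 47.2%, against a median of 51.2% over all windows in the table. The table held 13 windows for 8 of the 10 genes, with none used for Zbtb16 and Cebpd. On either strand the half-site (TGTTCT or its reverse complement AGAACA) occurred in 1 of these windows, that of Lpin1, 187 bases before the start, and in 17.5% of the 33469 windows of the same length. The full palindrome (AGAACA, any 3 bases, TGTTCT) and a looser form that contains it (GNACA, any 3 bases, TGTNC) were in none of the 13 and in 0.012% and 0.373% of all windows. The E-box CACGTG, bound by circadian clock factors, was in the Klf15 window and in 5.59% of all. The cyclic AMP response half-site TGACG (or CGTCA) was in windows of Klf9, Klf15, Errfi1 and Tsc22d3, that is in 4 of the 13 windows, and in 18.2% of all windows. The full cyclic AMP response element, a palindrome that contains the half-site, was in no window of these genes and in 1.59% of all. These matches describe letters in short windows, and the files hold no measurement of receptor binding.

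The libraries held 7926445 to 8893843 expected counts (read counts as estimated by RSEM), and 12232 to 12484 genes were listed in each. Levels are given as FPKM, the authors' values per transcript length and library size, and changes as log2 fold changes of edgeR's quasi-likelihood test with standard error (SE) and an adjusted p (Benjamini-Hochberg over 10129 genes). On the first principal component (30.8% of the variance) SHAM reached from -39.09 (replicate 2) to 9.73 (replicate 3), DN from 22.15 to 24.53 and DN-SM from -11.51 to -8.45. The 7 skeletal muscle markers measured summed to 129222 to 154485 FPKM per library. Acta1 and Ckm made up most of this sum (means of 67772.5 and 28454.4 FPKM in SHAM), so it can hide a change in a less abundant marker. None of the 7 passed by edgeR in any comparison, and at most 2 had an unadjusted p under 0.05. DESeq2 called 1, in DN against SHAM, where it called 758 over all genes. In DN against SHAM 1 of the 7 had every DN library below every SHAM library (6.91% of genes), and 2 had the reverse. The share over all genes for the reverse is not given here, so nothing is read from that count.

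Fkbp5, an immunophilin co-chaperone that lowers the receptor's affinity for hormone and is itself induced by it, was lower after nerve injury and lay between the other groups after injury with stimulation. Its FPKM was 5.54, 5.91 and 4.49 in SHAM replicates 1 to 3, 1.24, 1.84 and 1.82 in DN, and 2.72, 4.24 and 3.79 in the DN-SM libraries. No library of one group reached into another: every DN library was below every DN-SM library, and every DN-SM library was below every SHAM library. Across the tested genes, 20 (0.197%) had the 3 groups apart in this order, with DN lowest and SHAM highest. The counts behind these levels were modest, 38 to 55 in DN, 83 to 130 in DN-SM and 142 to 183 in SHAM.

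After nerve injury Fkbp5 fell to 0.291 of its SHAM level (5.31 ± 0.737 FPKM in SHAM and 1.63 ± 0.341 in DN, SD, n = 3). The log2 fold change was -1.78 (SE 0.214, 95% interval -2.25 to -1.32), with an edgeR adjusted p of 0.00235, the 7th smallest p of the comparison. Between DN and DN-SM (3.58 ± 0.781 FPKM) it was 2.35-fold higher with stimulation, a log2 fold change of 1.23 (SE 0.217, 95% interval 0.76 to 1.70). The unadjusted p was 8.93e-05, the 3rd smallest, and the edgeR adjusted p was 0.144, so the difference did not pass the threshold. It passed with DESeq2 (adjusted p = 0.00215) and in edgeR without the SHAM libraries (0.00673, with 5.96% of genes called as higher). It also passed without SHAM replicate 2 (0.0110) or SHAM replicate 3 (0.0122). Over all genes these fits called 215, 716, 339 and 416, beside 1 in the main fit. Under the other settings it did not pass, with an edgeR adjusted p of up to 0.364 when 1 library was left out. DN-SM was 0.683 of SHAM, or -0.55 on the log2 scale (SE 0.200, 95% interval -0.99 to -0.12), and did not pass (edgeR adjusted p = 0.252).

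**Figure D1:**
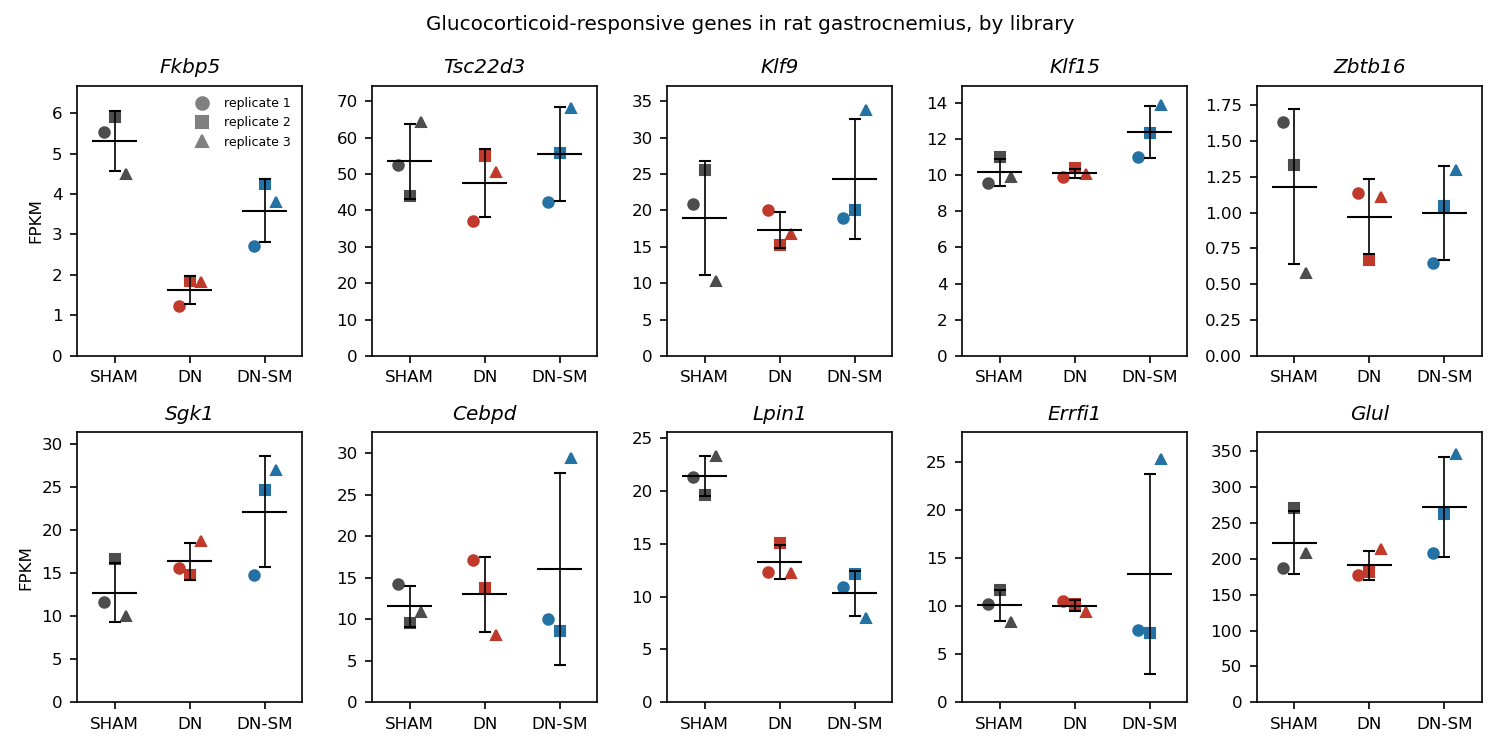
FPKM (vertical axis, from 0) of the 10 glucocorticoid-responsive genes in SHAM, DN and DN-SM; each point is 1 library, the symbol gives its replicate number, and bars are the mean ± SD of 3 libraries. Fkbp5 falls into 3 levels with no overlap, Lpin1 is highest in SHAM, and DN-SM replicate 3 stands above the other libraries in 7 of the 10 genes.

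Lpin1, a phosphatidate phosphatase of triglyceride synthesis that also acts as a coactivator of fat oxidation genes, was lower in both groups with nerve injury. Its FPKM was 21.3, 19.6 and 23.3 in SHAM, 12.4, 15.1 and 12.2 in DN, and 10.9, 12.1 and 7.96 in the DN-SM libraries. Every injured library was below every SHAM library, and the DN-SM libraries were in turn below the DN libraries, by a small gap. The highest DN-SM library was at 12.13 FPKM and the lowest DN library at 12.24. In DN-SM against DN, 21.3% of all genes were lower without overlap. The lowest mean of Lpin1 was thus in DN-SM and that of Fkbp5 in DN. Neither gene passed between these 2 groups (edgeR adjusted p = 0.415 for Lpin1 and 0.144 for Fkbp5).

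In DN against SHAM, Lpin1 fell from 21.4 ± 1.86 to 13.2 ± 1.62 FPKM (SD, n = 3), a log2 fold change of -0.77 (SE 0.164, edgeR adjusted p = 0.0280). It did not pass without SHAM replicate 2 (adjusted p = 0.0501), DN replicate 1 (0.0820) or DN replicate 3 (0.126), and with limma on log2(FPKM + 1) (0.0506). From SHAM to DN-SM it fell by 1.03 on the log2 scale (SE 0.166, edgeR adjusted p = 0.0184), to 10.3 ± 2.14 FPKM. This was not so without DN-SM replicate 1 (0.0703) or DN-SM replicate 3 (0.0580). Between DN and DN-SM its log2 fold change of -0.26 did not pass (edgeR adjusted p = 0.415).

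Among the transcription factors and regulators of the list, Klf15, which drives amino acid breakdown in muscle, was highest in DN-SM. Its FPKM was 9.57, 11.0 and 9.89 in SHAM, 9.89, 10.4 and 10.0 in DN, and 11.0, 12.3 and 13.9 in the DN-SM libraries. All 3 DN-SM libraries were above all libraries of the other groups, the lowest of them only narrowly above SHAM replicate 2. The difference of DN-SM from DN was 0.39 on the log2 scale (SE 0.146, edgeR adjusted p = 0.216) and that from SHAM 0.30 (0.420). Neither passed, and DN differed from SHAM by -0.09 (adjusted p = 0.770).

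Tsc22d3, also called GILZ, an anti-inflammatory leucine zipper protein, was one of the more abundant members. It lay at 52.4, 43.9 and 64.3 FPKM in SHAM, 37.1, 55.1 and 50.4 in DN, and 42.3, 55.8 and 68.2 in the DN-SM libraries, and all groups overlapped. It had a log2 fold change of -0.25 from SHAM to DN, and DN-SM differed from DN by 0.32 and from SHAM by 0.07 (edgeR adjusted p = 0.490, 0.404 and 0.922). Klf9, a repressor induced by both glucocorticoids and thyroid hormone, ranged from 10.3 to 25.6 FPKM within SHAM alone, from 15.2 to 20.1 in DN and from 19.0 to 33.8 in DN-SM. None of its differences passed, at -0.20, 0.57 and 0.38 on the log2 scale (edgeR adjusted p = 0.778, 0.396 and 0.686).

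Zbtb16, also called PLZF, a zinc finger repressor strongly induced by glucocorticoids in several tissues, was the lowest member. It ranged from 0.58 to 1.63 FPKM in SHAM, 0.67 to 1.14 in DN and 0.65 to 1.30 in DN-SM, on 12 to 30 counts per library. At this depth its differences were not resolved: in DN against SHAM the log2 fold change was -0.33 with a 95% interval of -1.17 to 0.51. Cebpd, a transcription factor of the acute response, was at 14.3, 9.56 and 10.9 FPKM in SHAM, 17.1, 13.8 and 8.11 in DN, and 10.1, 8.63 and 29.4 in the DN-SM libraries. Its DN-SM mean was set by replicate 3, and the log2 fold change of DN-SM against DN was 0.38 with that library and -0.39 without it.

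Of the kinases and kinase inhibitors, Sgk1, a kinase that regulates ion channels and opposes muscle wasting, was at 11.6, 16.6 and 9.98 FPKM in SHAM, 15.5, 14.8 and 18.7 in DN, and 14.8, 24.6 and 26.9 in the DN-SM libraries. Replicates 2 and 3 of DN-SM were above all other libraries, while replicate 1 lay among those of DN and SHAM. The difference of DN-SM from SHAM was 0.80 on the log2 scale (SE 0.244, edgeR adjusted p = 0.177). It passed without SHAM replicate 2 (1.10, adjusted p = 0.0325), where 137 genes were called, beside 85 in the main fit. Errfi1, an inhibitor of the EGF receptor, was at 10.3, 11.7 and 8.39 FPKM in SHAM, 10.5, 10.3 and 9.45 in DN, and 7.57, 7.20 and 25.4 in the DN-SM libraries. As for Cebpd, 1 library set the DN-SM mean: the log2 fold change of DN-SM against DN was 0.49 with replicate 3 and -0.35 without it.

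Glul, the enzyme glutamine synthetase, which muscle uses to export nitrogen as glutamine, was the most abundant member. It was at 187, 271 and 208 FPKM in SHAM, 177, 181 and 214 in DN, and 208, 262 and 345 in the DN-SM libraries. The groups overlapped, although the DN-SM mean (272 ± 69.0 FPKM, SD, n = 3) was above that of DN (191 ± 20.4). The log2 fold change of DN-SM against DN was 0.61 (SE 0.205, edgeR adjusted p = 0.193). It passed in the edgeR fit of the 2 groups alone (adjusted p = 0.0436), where 716 genes were called, beside 1 in the main fit. That of DN against SHAM was -0.31 (edgeR adjusted p = 0.397).

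Counted together, 2 of the 10 members fell and none rose in DN against SHAM (Fkbp5 and Lpin1), where 4.26% of all tested genes were called, 1.7% as lower. These 2 also had groups that did not overlap, which held for 6.91% of genes in that direction. In DN-SM against DN none of the 10 passed, where 0.00987% of genes (1 gene) were called by edgeR and 17.6% had an unadjusted p under 0.05. The members with an unadjusted p under 0.05 there were Fkbp5, Klf15, Sgk1 and Glul, all higher. The groups did not overlap for Fkbp5 and Klf15 (higher, 11.4% of genes) and for Lpin1 (lower, 21.3%). In DN-SM against SHAM 1 member fell, Lpin1, against 0.839% of genes called and 0.425% called as lower; Fkbp5 and Lpin1 were lower without overlap (9.34% of genes) and Klf15 higher (7.49%).

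The median log2 fold change of the 10 members was -0.22 in DN against SHAM, 0.44 in DN-SM against DN and 0.30 in DN-SM against SHAM, beside -0.01, -0.01 and 0.02 over all tested genes. Between DN and DN-SM 9 members had a positive fold change and Lpin1 a negative one. These comparisons share groups of libraries and are not independent of each other. DN-SM replicate 3 had a large part in the medians: it was the highest of the 9 libraries in 7 of the 10 members (7.28% of all tested genes) and the highest of its group in all but Fkbp5 and Lpin1 (36.3% of genes). Without it the medians were 0.21 in DN-SM against DN and -0.19 in DN-SM against SHAM.

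**Figure D2:**
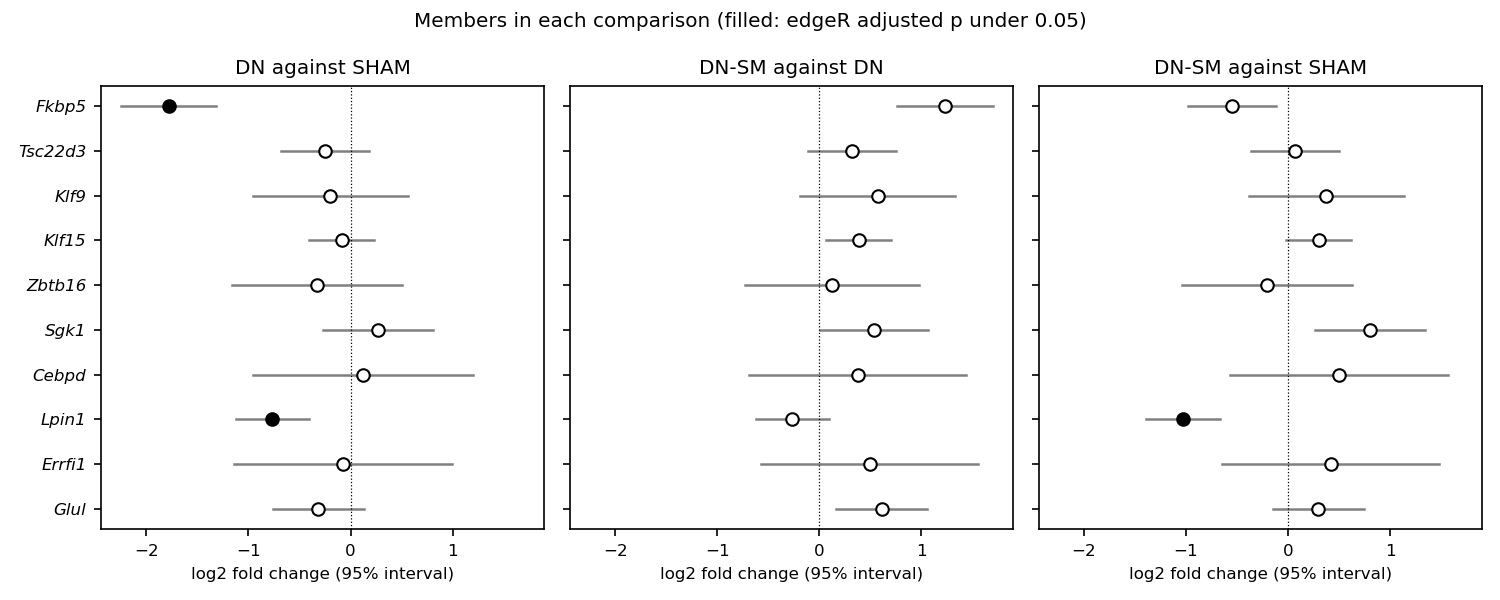
Log2 fold change of each of the 10 members (horizontal axis) with its 95% interval in the 3 comparisons; filled points have an edgeR adjusted p under 0.05. Fkbp5 is farthest from 0 in the first 2 panels, and Lpin1 is the only filled point in the third.

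The log2 fold change of Fkbp5 after injury lay below those of the other members and of most tested genes. Its 95% interval was wholly below those of all 9 others in DN against SHAM, and below those of 92.4% of all genes. In DN-SM against DN it was wholly above those of Tsc22d3, Klf15 and Lpin1, that is of 3 of 9 (72% of genes). It overlapped those of Klf9, Zbtb16, Sgk1, Cebpd, Errfi1 and Glul. In DN-SM against SHAM it was wholly below those of Klf15 and Sgk1, 2 of 9 (13.2% of genes). The log2 ratio of Fkbp5 to each other member within a library, from log2(FPKM + 1), was also compared. In DN it was below SHAM without overlap for 9 of 9 members (97.5% of genes), with mean differences from -0.61 for Lpin1 to -1.62 for Sgk1. Both counts of 9 of 9 in DN against SHAM were near the shares over all genes, so they are not particular to the members. In DN-SM the ratio was above DN without overlap for 4 of 9 (Tsc22d3, Klf15, Zbtb16 and Lpin1; 86.6% of genes) and below SHAM for 4 of 9 (Klf9, Klf15, Sgk1 and Glul; 47.4%). Between DN and DN-SM both counts were below the shares over all genes, and that difference was not tested.

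Over the 9 libraries, pooled without regard to group, no member followed Fkbp5 closely. The pooled values mix differences between the groups with the spread inside each group, and their permutation takes no account of the groups. In log2(FPKM + 1) the largest Pearson r was 0.48 for Glul (Spearman rho 0.42; exact permutation p = 0.190 and 0.270, two-sided). Lpin1 followed with r = 0.46 (rho 0.45; exact permutation p = 0.210 and 0.230), and Tsc22d3 with r = 0.40 (rho 0.33; exact permutation p = 0.285 and 0.385). Of the others, Zbtb16 had r = 0.33 (rho 0.30; exact permutation p = 0.377 and 0.437), Klf15 0.23 (0.02; 0.554 and 0.973), Klf9 0.21 (0.32; 0.600 and 0.410), Errfi1 0.09 (0.04; 0.863 and 0.922), Sgk1 -0.08 (-0.18; 0.834 and 0.644) and Cebpd -0.09 (-0.10; 0.829 and 0.810). Adjusted over the 9 relations, the exact permutation p of r ranged from 0.848 to 0.863 and that of rho from 0.786 to 0.973. The median r of the 9 was 0.23, beside -0.10 over all other tested genes. Without DN replicates 1 and 3, the libraries farthest from the median of Fkbp5, r ranged from -0.14 (Cebpd) to 0.67 (Zbtb16). The largest gap between neighbouring libraries in Fkbp5 was 0.39 on this scale and the next 0.36, so the libraries were not treated as separate clusters.

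**Figure D3:**
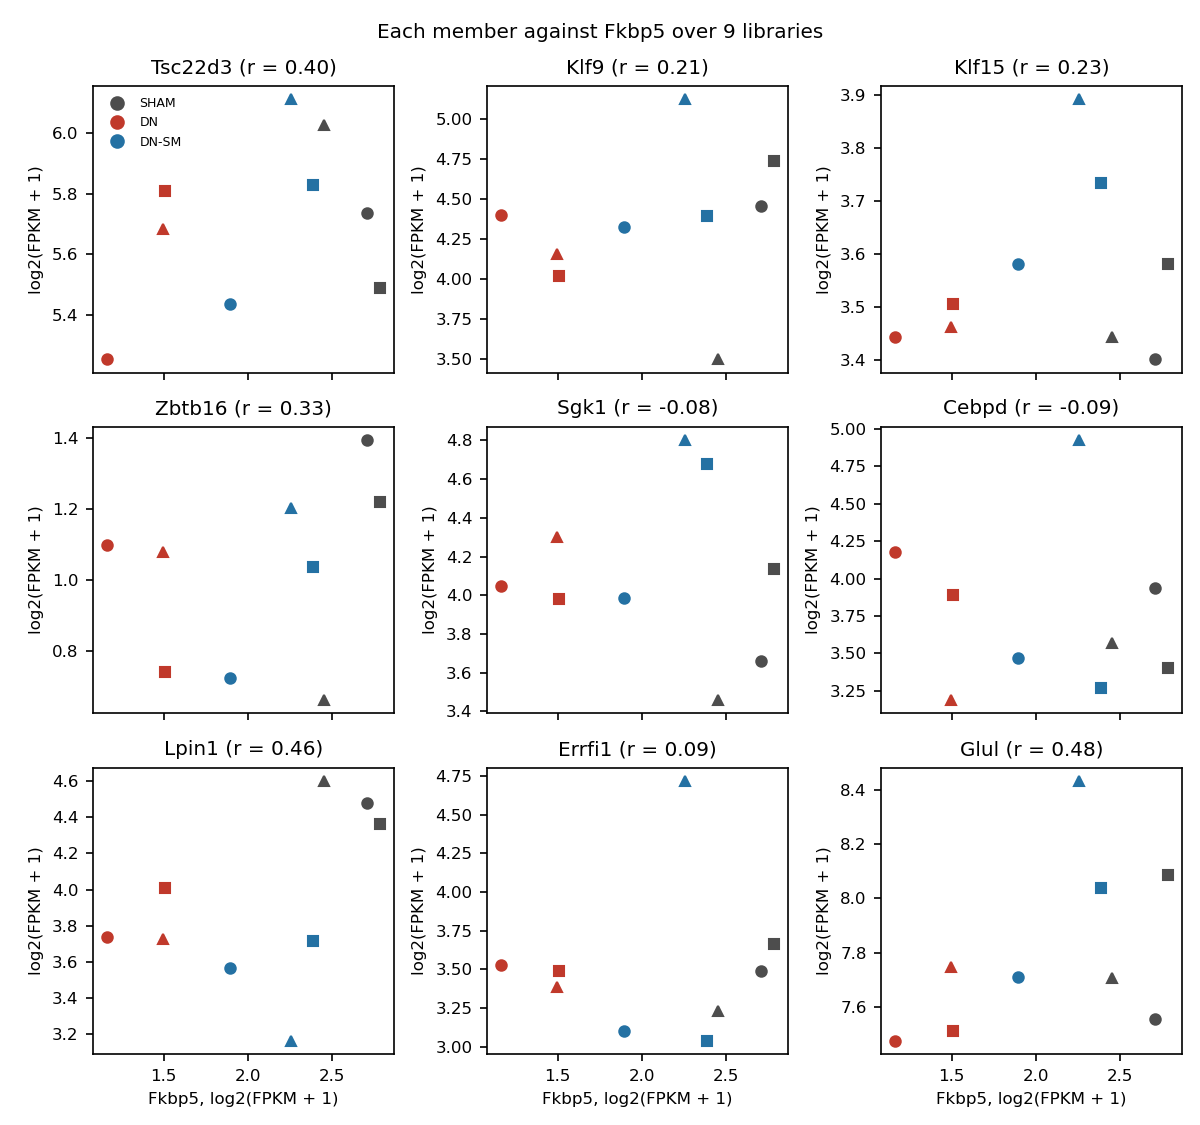
Each other member (vertical axis) against Fkbp5 (horizontal axis), both as log2(FPKM + 1), over the 9 libraries; colours give the group, symbols the replicate number, and r is Pearson's. The SHAM libraries lie at the right in every panel; they are above all others in Lpin1, and none of them is above a DN-SM library in Klf15.

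Within the 6 nerve-injured libraries (DN and DN-SM), a subset added after the data were seen, the relations looked different. Klf15 had r = 0.90 with Fkbp5 (rho 0.94; exact permutation p = 0.0125 and 0.0167), Glul 0.84 (rho 0.77; exact permutation p = 0.0306 and 0.103) and Sgk1 0.78 (rho 0.49; exact permutation p = 0.0958 and 0.356). Lpin1 had the opposite sign, r = -0.57 (rho -0.66; exact permutation p = 0.257 and 0.175). None passed after adjustment over the 9 relations (smallest adjusted p = 0.1125). Tsc22d3, Klf9, Zbtb16, Cebpd and Errfi1 lay between 0.06 and 0.68. These values mix the difference of DN-SM from DN with the spread inside each group. For the deviations of the 9 libraries from their group means, described without a test, r with Fkbp5 was 0.77 for Sgk1, 0.60 for Klf15, 0.58 for Glul and between -0.09 and 0.49 for the other 6.

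The genes most like Fkbp5 over the 9 libraries were none of the members. Of 5375 tested genes with a mean of at least 5 FPKM, the 6 with the highest r were Ppm1a (0.93), a protein phosphatase, Usp7 (0.92), a deubiquitinase, Zfyve9 (0.92), an endosomal adaptor of TGF-beta signalling, Mxi1 (0.92), a Max-binding repressor, Tnks2 (0.92), a tankyrase, and Zfp180 (0.91), a zinc finger protein. Ppm1a was at 89.0 ± 14.1 FPKM in SHAM, 52.9 ± 8.24 in DN and 81.8 ± 5.96 in the DN-SM group (SD, n = 3). All 6 had their lowest mean in DN and their highest in SHAM, as Fkbp5 did, which follows from choosing them by r.

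The receptor and its handling were read from 18 genes, all tested. In DN against SHAM 1 was higher and none lower, where 2.57% and 1.7% of all genes were called in these directions. The higher gene was Hsd11b1, the enzyme that regenerates active glucocorticoid inside cells. It was at 4.34 ± 1.71 FPKM in SHAM and rose to 12.8 ± 1.60 in DN (SD, n = 3), by 1.51 on the log2 scale (edgeR adjusted p = 0.0227). It did not pass when SHAM replicate 2 was left out (adjusted p = 0.0836) and without any 1 of the DN libraries (0.0648 to 0.0721). Nor did it pass with limma on log2(FPKM + 1) without a filter (0.0524). In DN-SM it was at 7.95 ± 3.65 FPKM, and neither difference passed there (edgeR adjusted p = 0.294 against DN and 0.212 against SHAM). The receptor gene Nr3c1 was at 4.52 ± 2.20 FPKM in SHAM, 2.95 ± 0.372 in DN and 4.19 ± 0.389 in the DN-SM group. It did not pass in DN against SHAM (log2 fold change -0.69, edgeR adjusted p = 0.237), nor in DN-SM against DN (0.61, 0.344) or against SHAM (-0.08, 0.945). Without SHAM replicate 3, Nr3c1 passed in DN against SHAM (-1.04, edgeR adjusted p = 0.00273) and in DN-SM against DN (0.0328). In that fit the calls over all genes went from 432 to 1183 and from 1 to 416. Nr3c1 in DN-SM against DN also passed when these 2 groups were fitted alone (0.0155), where 716 genes were called. Of the 18 genes none passed by edgeR in the comparisons of DN-SM. Against DN 5 had an unadjusted p under 0.05, beside 17.6% of all genes, and DESeq2 called 0. Against SHAM 2 had such a p, with the share over all genes not given here, and DESeq2 called 1. Ppid, another immunophilin of the receptor complex, had the smallest p against DN (log2 fold change 0.83, edgeR adjusted p = 0.148). It passed when these 2 groups were fitted alone (0.00692) and without SHAM replicate 2 (0.0232) or 3 (0.0250). Those fits called 716, 339 and 416 genes. Fkbp4, the immunophilin that favours nuclear transport of the receptor, had the smallest p against SHAM (-0.43, edgeR adjusted p = 0.0906), and was the gene that DESeq2 called there (adjusted p = 0.00995).

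Other known glucocorticoid targets moved in both directions. Of 34 tested, 4 were higher (Usp2, Cdkn1a, Mt1 and Cdkn1c) and 4 lower (Pdk4, Fbxo32, Sesn1 and Mknk2) in DN against SHAM, where 2.57% and 1.7% of all genes were called in these directions, and the median was -0.16. Leaving out each library in turn gave 2 to 5 higher and 1 to 5 lower. Sesn1 was lost without SHAM replicate 2, any 1 of the DN libraries or DN-SM replicate 2 (edgeR adjusted p = 0.0531 to 0.103). Fbxo32 was lost without SHAM replicate 1 or 2 or DN replicate 1 or 3 (0.0568 to 0.0765), and Mknk2 without DN replicate 1 (0.0614) or 3 (0.0877). Mt1 (0.0542) and Cdkn1c (0.0631) were lost without DN replicate 3. The edgeR fit of the 2 groups alone lost Fbxo32 (0.0546) and Mknk2 (0.0528). Sesn1 was lost with limma under all 3 settings (0.0748 to 0.117). Limma lost Fbxo32 on log2(FPKM + 0.1) (0.0514) and on log2(FPKM + 1) without a filter (0.0757), and Mknk2 in the latter (0.0550). Usp2, a deubiquitinase, rose by a log2 fold change of 0.87 (edgeR adjusted p = 0.00482), and Cdkn1a, a cell cycle inhibitor, by 3.18 (0.00825, lost without SHAM replicate 2 at 0.0586). Pdk4, the kinase that turns off pyruvate dehydrogenase, fell by 1.38 on the log2 scale, from 71.0 ± 9.19 to 28.8 ± 2.33 FPKM (SD, n = 3; edgeR adjusted p = 0.0092, lost without DN replicate 3 at 0.0525). Per1, a clock gene that glucocorticoids induce directly, did not pass, at 1.30 on the log2 scale (edgeR adjusted p = 0.152), but passed without DN-SM replicate 3 (1.29, 0.0448).

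Between DN and DN-SM none of the 34 passed by edgeR or DESeq2, and Per1 was at 0.02 (edgeR adjusted p = 0.987). Without adjustment 5 of them had an edgeR p under 0.05, 2 higher and 3 lower, beside 17.6% of all genes in either direction. In DN-SM against SHAM 4 were higher (Usp2, Cdkn1a, Cdkn1c and Gadd45a) and 3 lower (Pdk4, Fbxo32 and Mknk2), against 0.415% and 0.425% of all genes. Usp2 rose by 0.91 (edgeR adjusted p = 0.00772) on the log2 scale, Cdkn1c, a cell cycle inhibitor, by 1.26 (0.0184), and Mknk2, a kinase of the translation factor eIF4E, fell by 0.75 (0.0127). Leaving out each library in turn gave 1 to 4 higher and 0 to 3 lower, with 0 lower without DN-SM replicate 1 or DN-SM replicate 3. Of the 7 genes, Usp2 passed in every one of these fits and each of the others was lost in at least 1. The Mknk2 call was lost without any 1 of the DN-SM libraries (0.0580 to 0.0763), and that of Cdkn1c without SHAM replicate 1 (0.0693), DN-SM replicate 1 (0.0777) or DN-SM replicate 2 (0.0763). Pdk4 was lost without any 1 library other than DN-SM replicate 2 (0.0507 to 0.114), and Cdkn1a without any 1 other than DN replicates 2 and 3 (0.0739 to 0.119). Fbxo32 was lost without SHAM replicate 1 (0.0738) or any 1 of the DN-SM libraries (0.0786 to 0.119), and Gadd45a without SHAM replicate 1 or 3 or DN-SM replicate 2 or 3 (0.0617 to 0.0792). With the replicate number as a block 1 was lower, with Pdk4 (0.0611) and Fbxo32 (0.0559) lost. The edgeR fit of the 2 groups alone lost Pdk4 (0.121) and Cdkn1c (0.0673), and that without a filter lost Cdkn1a (0.0802). Limma on log2(FPKM + 1) without a filter lost Pdk4 (0.0961), Fbxo32 (0.0961), Cdkn1c (0.0759) and Gadd45a (0.0814). Limma on log2(FPKM + 0.1) lost Pdk4 (0.0546) and Fbxo32 (0.0559). Of 9 tested metabolic targets of Klf15 none passed by edgeR in any comparison, and the medians were -0.18, 0.23 and -0.03. An unadjusted p under 0.05 was found for 3, 3 and 0 of them (17.6% of all genes in DN-SM against DN), and DESeq2 called 1, 1 and 0. The smallest p among them in DN against SHAM was that of Aldh6a1, an enzyme of valine breakdown (log2 fold change -0.77, edgeR adjusted p = 0.104), and its log2 fold change in DN-SM against DN was 0.87 (0.162). Aldh6a1 passed in both with DESeq2 (adjusted p = 0.0243 and 0.0306) and, by edgeR, without SHAM replicate 3 (0.00732 and 0.0202). The second also passed without SHAM replicate 2 (0.0246) and when these 2 groups were fitted alone (0.00616). Over all genes, 1183 and 416 were called in the 2 comparisons without SHAM replicate 3. In DN-SM against DN, 339 were called without SHAM replicate 2 and 716 in the fit of these 2 groups.

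**Figure D4:**
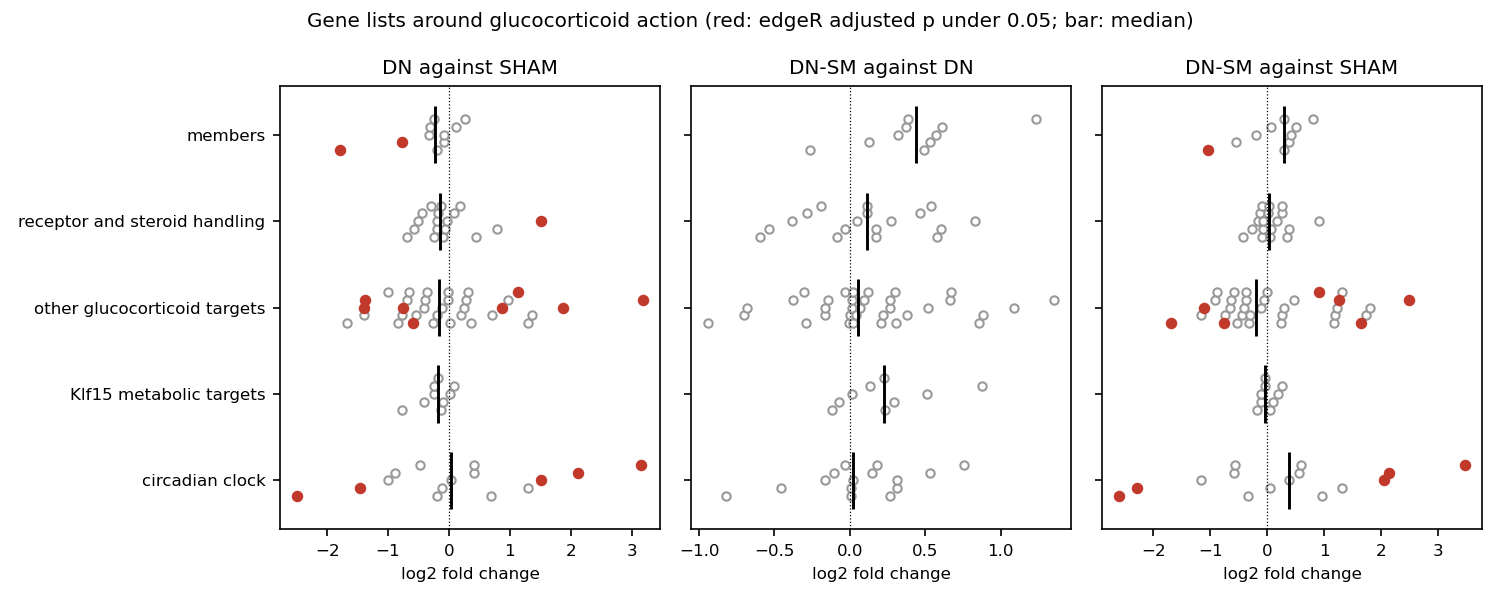
Log2 fold changes (horizontal axis, scaled separately in each panel) of the members and of 4 lists around them, for the 3 comparisons; each point is 1 tested gene, filled red points have an edgeR adjusted p under 0.05, and bars are medians. Points past the threshold lie on both sides of 0 among the other glucocorticoid targets and the clock genes, and none is past it in DN-SM against DN.

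Clock genes differed from SHAM in both injured groups. Of 15 circadian clock genes, 3 were higher (Per2, Ciart and Dbp) and 2 lower (Bmal1 and Npas2) in DN against SHAM. Over all genes 2.57% were called as higher there and 1.7% as lower. In DN-SM against SHAM 3 were higher and 2 lower, against 0.415% and 0.425% of all genes. In DN against SHAM, Npas2 was lost without SHAM replicate 1, any 1 of the DN libraries or DN-SM replicate 1 (edgeR adjusted p = 0.0585 to 0.113). Npas2 was also lost in the edgeR fit of the 2 groups alone (0.0606) and with limma on log2(FPKM + 1) without a filter (0.129). Dbp was lost there without DN replicate 1 (edgeR adjusted p = 0.0509). Bmal1, the activator of the clock, was at 6.94 ± 1.43 FPKM in SHAM, 1.29 ± 0.362 in DN and 1.12 ± 0.477 in the DN-SM group, and Per2, a repressor of it, at 1.29 ± 0.186, 3.88 ± 0.308 and 5.26 ± 0.636 (SD, n = 3). The log2 fold changes in DN against SHAM were -2.49 and 1.52 (edgeR adjusted p = 0.00232 for both). None of the 15 passed by edgeR in DN-SM against DN. There 3 had an unadjusted p under 0.05, beside 17.6% of all genes, and DESeq2 called 1. The hour of collection is not given in the labels, corticosterone and several of the members are known to vary over the day, and the part of collection time in the results was not tested.

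Markers of other cell types also moved in DN against SHAM. Over all tested genes edgeR called 2.57% as higher there, and DESeq2 called 758 genes in either direction. The share of all genes with an unadjusted p under 0.05 in this comparison is not given here. Of 10 Schwann cell markers 3 were higher by edgeR and 7 by DESeq2, 9 had an unadjusted edgeR p under 0.05 and 10 a positive log2 fold change. Their summed level was 74.5 to 81.5 FPKM in SHAM, 155 to 339 in DN and 90.0 to 193 in DN-SM. Of 10 endothelial markers 5 were higher (135.7 to 166.5 FPKM summed in SHAM, 203 to 262 in DN and 184 to 199 in DN-SM), and of 7 tested adipocyte markers 2 were higher (81.7 to 110.2, 130.7 to 183 and 110.0 to 143 over the 9 matched). DESeq2 called 6 of the endothelial and 3 of the adipocyte markers as higher. Without 1 library the edgeR counts were 0 to 5, 0 to 5 and 0 to 2 for Schwann cell, endothelial and adipocyte markers, and all 3 were 0 without DN replicate 3. None of the tested fibroblast (10), macrophage and leukocyte (8) or satellite cell (3) markers passed there by edgeR or DESeq2, and 1, a satellite cell marker, had an unadjusted p under 0.05. Of the defining markers, Lep was listed at 0 in at least 1 SHAM and 1 DN-SM library, and Cd3e in at least 1 DN-SM library. In bulk tissue fewer cells of a type and less RNA per cell cannot be told apart, and the part of these cell types in the levels of the members was not tested.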

How the data were processed

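Gene levels came from 9 text files, 1 per library. Each gives an expected count per gene, an estimate of RSEM per the file headers that the authors left unscaled; a gene absent from a file was set to 0 here. The deposited FPKM divide this by effective transcript length and library size, per the file headers. Tools named in the submitters' processing notes are HISAT2, RSEM and GATK, with the rat build rn6; versions and settings are not given in the sources used here. Symbols came from a RefSeq table of the assembly GRCr8 (13649 of 13752 IDs by gene ID, 7 by accession), and files and table share no coordinates here. All 90 expected counts of the members were whole within 0.005.

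Expected counts were rounded and tested with edgeR 4.0.16 in R 4.3.3 (quasi-likelihood F test, robust, two-sided, TMM factors, filterByExpr at a count of 10 and a total of 15, threshold 0.05), in 1 fit of the 9 libraries with the group as the only term. The test and the permutation of r were tested on simulated data. Means ± SD are of FPKM. All 10 members passed the filter. The total count per library limits the precision for low genes such as Zbtb16. Relations used log2(FPKM + 1) and exact permutation over all pairings. Non-overlap means that every library of one group lay above every library of the other.

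Alternatives were RLE factors, DESeq2 1.42.0, no filter, a CPM filter of 1 in 3 libraries, fits of 2 groups alone, the replicate number as a block, limma 3.58.1 on log2 FPKM (pseudocount 1 or 0.1, with or without an FPKM filter of 1 in 3 libraries), log2 CPM for the relations, and leaving out each library. The members and the 11 lists set beside them (156 entries, 151 matched) were chosen with earlier results of these data known. Named genes were the members, up to 3 genes per list and comparison with the smallest adjusted p, Nr3c1, Hsd11b1 and Per1, and the 6 genes most like Fkbp5; further genes named in counts of 5 or fewer were chosen after their values were seen. The values of 1 marker gene are not reported here.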

Additional observations from a re-analysis of the deposited data

How the results depend on the processing

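Fkbp5 in DN against SHAM passed under every alternative run, with a log2 fold change of -1.89 to -1.65 when a library was left out. The number of members past the threshold in DN against SHAM was 2, and it was 1 (Fkbp5) with limma on log2(FPKM + 1), on log2(FPKM + 0.1) and without a filter, where Lpin1 had an adjusted p of 0.0506, 0.0565 and 0.0818. Leaving out each library gave 1 to 2. In DN-SM against DN no member passed by edgeR, 1 passed with DESeq2 (Fkbp5), 2 passed in the fit of the 2 groups alone (Fkbp5 and Glul), and leaving out each library gave 0 to 1. In DN-SM against SHAM 1 passed, and leaving out each library gave 0 to 2. The cause of these changes was not tested. DESeq2 gave no adjusted p for Zbtb16.

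Over all genes the calls in DN against SHAM went from 432 to 758 with DESeq2, 156 in the fit of the 2 groups alone, 278, 250 and 131 with the 3 limma settings, and 58 to 1183 without 1 library (58 without DN replicate 3, 1183 without SHAM replicate 3). In DN-SM against DN they went from 1 to 215 with DESeq2, 716 in the fit of the 2 groups alone, 0 with limma on log2(FPKM + 0.1) and 0 to 416 without 1 library. In DN-SM against SHAM they went from 85 to 259 with DESeq2, 28 in the fit of the 2 groups alone, 39 with the block, 47, 43 and 25 with limma, and 15 to 137 without 1 library.

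With the replicate number as a block the members past the threshold were 2, 0 and 1 in the 3 comparisons, as without it. Same-numbered libraries did not deviate together (r -0.05 to 0.11 over 9 pairs, 1 of them over 0.1; 3 libraries correlated best with their own number), so the numbers were not taken to pair the libraries.

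Some values far from a call changed sign. With limma on log2(FPKM + 1), with and without a filter, and on log2(FPKM + 0.1), Errfi1 in DN against SHAM went from -0.08 to 0.00647 and 0.00800, Nr3c1 in DN-SM against SHAM from -0.08 to 0.00718 and 0.0408, and Per1 in DN-SM against DN from 0.02 to -0.16 and -0.17. In log2 CPM the r of Sgk1 with Fkbp5 went to 0.0158, and in the 6 nerve-injured libraries that of Sgk1 went to 0.778, of Cebpd to 0.0597 and of Lpin1 to -0.566. No relation passed after adjustment under any setting.

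Leaving out each library in turn turned the sign of further values that did not pass, with these ranges of log2 fold changes. In DN against SHAM they were -0.49 to 0.15 for Klf9, -0.20 to 0.0133 for Klf15, -0.17 to 0.40 for Cebpd and -0.18 to 0.0859 for Errfi1. Between DN and DN-SM they were -0.0982 to 0.36 for Zbtb16, -0.39 to 0.69 for Cebpd, -0.35 to 0.80 for Errfi1 and -0.57 to 0.31 for Per1. Between SHAM and DN-SM they were -0.11 to 0.25 for Tsc22d3, -0.52 to 0.0209 for Zbtb16, -0.27 to 0.80 for Cebpd, -0.43 to 0.72 for Errfi1 and -0.42 to 0.27 for Nr3c1. The r with Fkbp5 ranged from -0.21 to 0.0965 for Sgk1, -0.31 to 0.10 for Cebpd and -0.0482 to 0.18 for Errfi1.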
